A study of Rattus norvegicus with 20 samples.

Results

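The genes described here are 34 genes of the acute phase and NF-kappaB response in rat liver: 15 secreted acute phase proteins, the iron hormone hepcidin, 5 chemokine, adhesion or antimicrobial proteins, 5 receptors, 2 signalling and feedback proteins, 3 NF-kappaB subunits or inhibitors and 3 other transcription factors. They were taken as a fixed list, chosen with earlier results of these data known. Each was read from its brightest probe set that carries a single gene symbol. All 34 of 34 had such a probe set, out of 14217 genes with one, and 8 of the 34 had further probe sets (14 in all). Liver RNA of female Wistar Han rats was measured on 20 one-colour expression arrays, 5 in each of 4 groups. Dams were given PBDE-47, a brominated flame retardant, in corn oil by gavage from gestation day 6 to postnatal day 4 at 0.1, 15 or 50 mg/kg per day, and vehicle dams were given corn oil alone. All groups therefore shared the strain, the corn oil and the gavage. Livers were taken on postnatal day 4. The doses are given for dams, and nothing in the labels states if the liver is that of the dam or of her pup, or if arrays within a group stem from different litters. The p-values therefore measure only the spread between these arrays, which may be technical. Afp, which fetal and newborn liver makes, had a mean log2 value of 14.30 over the 20 arrays.

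The acute phase response is the change in what hepatocytes secrete when cytokines signal injury or infection. Interleukin 6 acts through gp130 (Il6st) and STAT3, and Socs3 is induced by STAT3 and blocks it. Interleukin 1, TNF and bacterial products act through NF-kappaB, which is held in the cytoplasm by inhibitors such as Nfkbia and helped at some nuclear targets by Nfkbiz, and C/EBP factors act on the same promoters.

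At 50 mg/kg, 1 of the 34 genes fell against vehicle, Nfkbiz (2.09-fold), and none rose. Of all probe sets 0.348% fell and 0.586% rose. Nfkbiz encodes a nuclear IkappaB protein that helps NF-kappaB switch on a subset of its targets. Another 29 genes had a lower mean at 50 mg/kg without passing the test, and 4 had a higher one, where 47% of all probe sets were lower. Crp, a pentraxin that binds microbial surfaces, rose at 50 against 0.1 mg/kg (2.18-fold), as did 0.583% of all probe sets. Arrays of the same group also differed for some of the genes. For Lcn2, an antimicrobial protein that binds bacterial iron carriers, vehicle replicate 4 stood 9.98-fold above the mean of the other 4 vehicle arrays.

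Levels are log2 array values and are compared only within a probe set, since probe sets differ in affinity. A gene was called where the adjusted p of the fit over all 31042 probe sets was under 0.05. Muscle or exocrine pancreas transcripts, which a liver sample should lack, were carried by 9 arrays (list means up to 9.54 for muscle and 7.35 for pancreas, against lowest values of 4.12 and 4.48). Without them 4 vehicle arrays, 1 at 0.1 mg/kg, 3 at 15 mg/kg and 3 at 50 mg/kg remained. An array was counted as a carrier if a list mean was more than 2 above the lowest array. Replicates 3 and 5 at 50 mg/kg, with muscle means of 6.07 and 5.04, fell under that and were kept. Array medians lay between 5.605 and 5.648.

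Promoter sequences were read for 29 of the 34 genes from RefSeq (rat assembly GRCr8). No promoter is given for A2m, Lbp, Hp, Cebpd and S100a8. Those of 7 genes are shown because the results turn on them: Nfkbiz and Crp, which were called, Serpina3n, which was next to the threshold, Lcn2 and Cxcl1, which varied widely between arrays, and 2 fibrinogen chains, whose deviations each correlated with those of Fga. Each run is the 250 bases before the annotated start, 5′ to 3′ on the gene's strand. Capitals mark matches to any of 5 motifs, searched on both strands: the NF-kappaB consensus (by name, since its letters include degenerate ones), TTCNNNGAA (STAT), CTGGGAA (the type II acute phase element), TTGCNNAA (C/EBP) and TGANTCA (AP-1).
Nfkbiz (GRCr8 chr11:58251471-58251720, plus strand): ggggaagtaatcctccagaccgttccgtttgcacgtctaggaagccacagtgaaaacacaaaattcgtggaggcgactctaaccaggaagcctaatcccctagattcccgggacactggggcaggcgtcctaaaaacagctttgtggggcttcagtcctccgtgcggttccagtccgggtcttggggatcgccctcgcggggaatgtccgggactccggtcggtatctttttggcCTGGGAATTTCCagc
Cxcl1 (GRCr8 chr14:17479322-17479571, minus strand): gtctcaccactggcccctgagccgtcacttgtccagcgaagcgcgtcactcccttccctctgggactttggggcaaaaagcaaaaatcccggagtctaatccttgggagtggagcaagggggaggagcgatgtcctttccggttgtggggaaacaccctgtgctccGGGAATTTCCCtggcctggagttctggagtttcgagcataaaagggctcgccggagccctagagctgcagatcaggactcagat
Lcn2 (GRCr8 chr3:36081781-36082030, minus strand): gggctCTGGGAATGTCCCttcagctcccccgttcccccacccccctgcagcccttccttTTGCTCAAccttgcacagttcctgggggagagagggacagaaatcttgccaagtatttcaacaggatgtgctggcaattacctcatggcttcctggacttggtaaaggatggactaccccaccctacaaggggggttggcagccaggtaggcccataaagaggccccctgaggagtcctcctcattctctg
Serpina3n (GRCr8 chr6:129088142-129088391, plus strand): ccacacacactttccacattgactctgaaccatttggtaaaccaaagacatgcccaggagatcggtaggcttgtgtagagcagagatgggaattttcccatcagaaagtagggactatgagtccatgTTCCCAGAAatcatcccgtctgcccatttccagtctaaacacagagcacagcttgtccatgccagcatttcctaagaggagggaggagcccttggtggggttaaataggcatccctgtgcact
Fgg (GRCr8 chr2:170652833-170653082, plus strand): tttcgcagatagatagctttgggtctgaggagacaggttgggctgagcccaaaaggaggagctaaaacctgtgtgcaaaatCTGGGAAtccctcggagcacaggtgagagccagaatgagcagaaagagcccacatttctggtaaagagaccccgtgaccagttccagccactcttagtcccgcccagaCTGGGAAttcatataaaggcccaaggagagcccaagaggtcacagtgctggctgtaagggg
Fgb (GRCr8 chr2:170700876-170701125, minus strand): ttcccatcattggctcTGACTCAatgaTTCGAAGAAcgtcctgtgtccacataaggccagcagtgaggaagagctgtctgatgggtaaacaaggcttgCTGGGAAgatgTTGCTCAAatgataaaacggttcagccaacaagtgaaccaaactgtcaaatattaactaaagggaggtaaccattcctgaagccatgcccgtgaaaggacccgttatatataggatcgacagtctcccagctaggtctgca
Crp (GRCr8 chr13:87693812-87694061, plus strand): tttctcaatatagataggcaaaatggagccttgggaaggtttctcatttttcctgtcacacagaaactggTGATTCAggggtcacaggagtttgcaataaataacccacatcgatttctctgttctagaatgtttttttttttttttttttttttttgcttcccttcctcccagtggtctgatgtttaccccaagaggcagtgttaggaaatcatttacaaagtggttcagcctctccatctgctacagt

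In the Nfkbiz promoter the type II element and the NF-kappaB match overlap, at positions -15 to -9 and -13 to -4 from the start. The Cxcl1 promoter held NF-kappaB matches at -84 to -75 and -83 to -74, which overlap each other. In the Lcn2 promoter an NF-kappaB match at -242 to -233 overlapped a type II element, and a C/EBP match lay at -191 to -184. The Fgb promoter held 4 of the 5 motifs and that of Fgg 2 copies of the type II element. In Serpina3n the STAT match at -123 to -115 covered a type II element on the other strand. An AP-1 match at -180 to -174 was the match found for Crp.

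Over windows of 300 bases, which add the 50 bases after the start, 8 of 29 promoters of these genes held the NF-kappaB consensus, against 7.51% of 33469 promoters of the same length. They were those of Il6st, Nfkb1, Lcn2, Nfkbia, Il1r1, Socs3, Nfkbiz and Cxcl1. The windows of Il6st, Nfkb1, Il1r1 and Socs3 lie wholly inside the annotated span of the gene, as do those of Il6r, Cd14 and Cp. For Nfkbia, Fgg, Icam1, Lcn2, Stat3 and Itih3 part of the bases before the start used also lies inside that span. The matches of Nfkbia and Icam1 and the nearer type II element of Fgg fall in that part. Matches inside the span may not lie before the gene's outermost start. The type II element was in 9 of 29 against 11.3%, the C/EBP motif in 8 of 29 against 10.6%, the STAT motif in 6 of 29 against 8.87% and the AP-1 motif in 4 of 29 against 7.33%. A match describes these letters and not a bound site.

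Among the NF-kappaB proteins, Nfkbiz fell and Nfkb1 and Nfkbia did not pass. Nfkbiz read 8.98, 8.14, 8.10, 9.19 and 8.28 in replicates 1 to 5, in that order, in vehicle, 8.32, 8.50, 8.15, 8.06 and 7.59 at 0.1 mg/kg, 7.64, 8.33, 7.64, 8.06 and 7.49 at 15 mg/kg and 7.56, 7.60, 7.37, 7.45 and 7.40 at 50 mg/kg. All 5 arrays at 50 mg/kg lay below every vehicle array, while arrays at 0.1 and 15 mg/kg overlapped with vehicle. The mean was 8.54 ± 0.51 (SD, n = 5) in vehicle, 8.13 ± 0.34 at 0.1 mg/kg, 7.83 ± 0.35 at 15 mg/kg and 7.48 ± 0.10 at 50 mg/kg. The log2 change at 50 mg/kg was -1.06 (SE 0.21, 95% interval -1.49 to -0.63, adjusted p = 0.0167). It was -0.71 at 15 mg/kg (adjusted p = 0.205) and -0.41 at 0.1 mg/kg (adjusted p = 0.745), where it did not pass. The call at 50 mg/kg held in all 20 fits that omit 1 array, and ended when only vehicle and 50 mg/kg arrays were fitted (adjusted p = 0.0563) or without the arrays that carry muscle or pancreas transcripts (log2 change -1.18, adjusted p = 0.159).

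A dimmer probe set of Nfkbiz (vehicle mean 5.19 ± 0.07, SD, n = 5) had the opposite sign. Its log2 change was 0.21 at 50 mg/kg (adjusted p = 0.185), 0.35 at 15 mg/kg (adjusted p = 0.0510) and 0.27 at 0.1 mg/kg (adjusted p = 0.429). At each dose all 5 arrays lay above all vehicle arrays. With both probe sets averaged the change at 50 mg/kg was -0.43 (adjusted p = 0.0645).

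Nfkbia encodes the inhibitor that retains NF-kappaB in the cytoplasm. Nfkbia read 7.75, 7.55, 7.76, 7.71 and 8.52 in vehicle, 8.21, 7.52, 7.75, 7.64 and 7.99 at 0.1 mg/kg, 7.62, 7.63, 7.60, 7.48 and 8.04 at 15 mg/kg and 7.67, 8.04, 7.46, 7.54 and 7.74 at 50 mg/kg. Vehicle replicate 5 and replicate 5 at 15 mg/kg were the high arrays of their groups, and the groups overlapped. The log2 change at 50 mg/kg was -0.17 (SE 0.17, adjusted p = 0.734). Nfkb1, the p105 and p50 subunit, had group means of 8.60 ± 0.13 in vehicle and 8.51 ± 0.11 at 50 mg/kg (SD, n = 5; log2 change -0.09, adjusted p = 0.776). Its mean at 0.1 mg/kg was 8.80 ± 0.25.

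**Figure D1:**
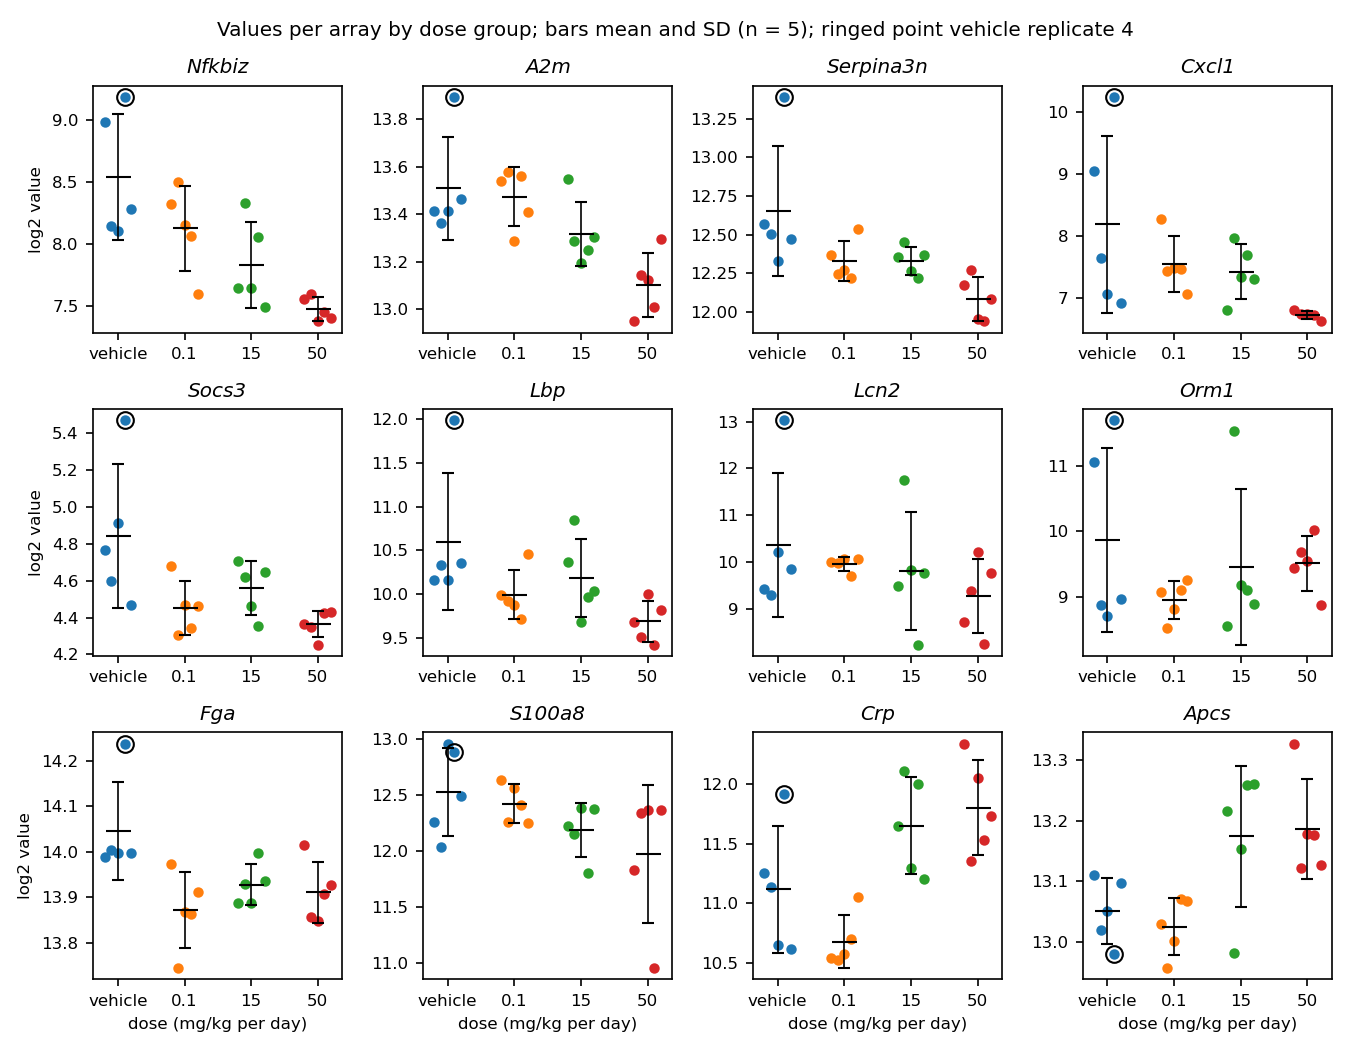
Log2 value (vertical) of 12 of the genes on each of the 20 arrays by dose (horizontal, mg/kg per day), with bars for the mean and SD of 5 arrays and vehicle replicate 4 ringed. The 5 arrays at 50 mg/kg sit below all vehicle arrays for Nfkbiz, A2m, Serpina3n, Cxcl1, Socs3 and Lbp, and those for Apcs above them.

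Among the 15 secreted acute phase proteins none rose or fell at 50 mg/kg against vehicle. A lower mean was seen for 13 of 15, against 47% of all probe sets. A2m, a protease inhibitor that is the classic acute phase protein of the rat, and Serpina3n, an inhibitor of serine proteases, came closest to the threshold. A2m read 13.41, 13.37, 13.41, 13.89 and 13.46 in vehicle, 13.54, 13.58, 13.29, 13.56 and 13.41 at 0.1 mg/kg, 13.55, 13.29, 13.19, 13.25 and 13.30 at 15 mg/kg and 12.95, 13.14, 13.12, 13.01 and 13.30 at 50 mg/kg. Every array at 50 mg/kg lay below every vehicle array, as for 1.18% of all probe sets. Its log2 change was -0.41 (SE 0.10, adjusted p = 0.0526), against -0.19 at 15 mg/kg and -0.04 at 0.1 mg/kg. Serpina3n read 12.57, 12.51, 12.33, 13.39 and 12.47 in vehicle, 12.37, 12.25, 12.27, 12.22 and 12.53 at 0.1 mg/kg, 12.35, 12.45, 12.26, 12.22 and 12.37 at 15 mg/kg and 12.18, 12.27, 11.95, 11.94 and 12.08 at 50 mg/kg. The groups at 50 mg/kg and vehicle did not overlap here either, and vehicle replicate 4 was the highest array. Its change was -0.57 (SE 0.14, adjusted p = 0.0582), and -0.32 at both 15 and 0.1 mg/kg (adjusted p = 0.373 and 0.68). Filters on a mean log2 value of at least 5 or 6 brought both A2m and Serpina3n under the threshold (adjusted p = 0.0377 and 0.0416 at the lower filter). Without vehicle replicate 4 Serpina3n passed (log2 change -0.39, adjusted p = 0.0468) and A2m did not (-0.31, adjusted p = 0.119).

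Lbp, the protein that hands bacterial lipopolysaccharide to CD14, showed the same non-overlap. Lbp read 10.16, 10.33, 10.16, 11.99 and 10.36 in vehicle, 9.99, 9.92, 9.87, 9.71 and 10.46 at 0.1 mg/kg, 10.37, 10.85, 9.69, 9.97 and 10.04 at 15 mg/kg and 9.68, 9.51, 10.00, 9.42 and 9.82 at 50 mg/kg. Vehicle replicate 4 stood 3.33-fold above the mean of the other 4 vehicle arrays. The log2 change at 50 mg/kg was -0.91 (SE 0.28, adjusted p = 0.141), and -0.56 without vehicle replicate 4 (adjusted p = 0.217).

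Orm1, orosomucoid, a plasma carrier protein, was high on 3 arrays from 2 groups. Orm1 read 11.06, 8.88, 8.71, 11.69 and 8.97 in vehicle, 9.07, 8.53, 8.81, 9.11 and 9.25 at 0.1 mg/kg, 8.56, 11.53, 9.18, 9.10 and 8.90 at 15 mg/kg and 9.44, 9.68, 9.55, 10.03 and 8.87 at 50 mg/kg. Vehicle replicates 1 and 4 and replicate 2 at 15 mg/kg were above 11, while the other 17 arrays lay between 8.53 and 10.03. The log2 change at 50 mg/kg was -0.35 (SE 0.54, adjusted p = 0.851), and 0.11 without vehicle replicate 4.

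The fibrinogen chains, which form the clot protein, and haptoglobin, which binds free haemoglobin, moved little. Fga read 13.99, 14.00, 14.00, 14.24 and 14.00 in vehicle, 13.97, 13.75, 13.87, 13.86 and 13.91 at 0.1 mg/kg, 13.89, 13.93, 13.89, 14.00 and 13.94 at 15 mg/kg and 14.02, 13.86, 13.85, 13.91 and 13.93 at 50 mg/kg. Fgb read 13.95, 13.94, 13.95, 14.27 and 13.92 in vehicle, 14.00, 13.81, 13.91, 13.94 and 13.90 at 0.1 mg/kg, 13.91, 13.93, 13.89, 13.99 and 13.94 at 15 mg/kg and 14.06, 13.92, 13.86, 13.90 and 13.98 at 50 mg/kg. Fgg read 14.10, 14.12, 14.13, 14.28 and 14.04 in vehicle, 14.12, 14.02, 14.10, 14.07 and 14.09 at 0.1 mg/kg, 14.10, 14.11, 14.08, 14.15 and 14.10 at 15 mg/kg and 14.11, 14.05, 14.06, 14.08 and 14.10 at 50 mg/kg. Vehicle replicate 4 was the highest array of its group for all 3 chains. Fga at 0.1 mg/kg lay below vehicle with no overlap (log2 change -0.17, adjusted p = 0.604). The log2 changes at 50 mg/kg were -0.13 for Fga (95% interval -0.26 to -0.01, adjusted p = 0.349), -0.06 for Fgb (-0.20 to 0.08) and -0.05 for Fgg (-0.15 to 0.05). Without vehicle replicate 4 the change of Fgb was 0.00, and in its 2 dimmer probe sets it was 0.03 and 0.06. Hp read 14.22, 14.20, 14.26, 14.42 and 14.20 in vehicle, 14.20, 14.09, 14.18, 14.15 and 14.23 at 0.1 mg/kg, 14.18, 14.30, 14.20, 14.23 and 14.24 at 15 mg/kg and 14.29, 14.21, 14.21, 14.15 and 14.08 at 50 mg/kg. The change of Hp was -0.07 (-0.19 to 0.05, adjusted p = 0.645).

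Crp and its relative Apcs (serum amyloid P), which are neighbours among protein-coding genes in GRCr8, went the other way from most of the list. Crp read 11.26, 11.14, 10.65, 11.92 and 10.62 in vehicle, 10.54, 10.52, 10.57, 10.70 and 11.05 at 0.1 mg/kg, 11.65, 12.11, 11.29, 12.00 and 11.20 at 15 mg/kg and 12.34, 11.35, 12.05, 11.53 and 11.73 at 50 mg/kg. Apcs read 13.11, 13.02, 13.05, 12.98 and 13.10 in vehicle, 13.03, 12.96, 13.00, 13.07 and 13.07 at 0.1 mg/kg, 13.21, 12.98, 13.15, 13.26 and 13.26 at 15 mg/kg and 13.33, 13.12, 13.18, 13.18 and 13.13 at 50 mg/kg. For both, all 5 arrays at 50 mg/kg lay above all 5 at 0.1 mg/kg. For Apcs they also lay above all vehicle arrays, while Crp overlapped with vehicle. Crp was 0.69 higher than vehicle at 50 mg/kg (SE 0.23, adjusted p = 0.197), 0.54 higher at 15 mg/kg (adjusted p = 0.376). At 0.1 mg/kg its change was -0.44 (adjusted p = 0.771). Against 0.1 mg/kg the mean at 50 mg/kg was higher by 1.12 (SE 0.23, adjusted p = 0.0254), from 10.68 ± 0.22 to 11.80 ± 0.40 (SD, n = 5). That call ended without any 1 of replicates 1 to 4 at 0.1 mg/kg or replicates 1, 3 and 5 at 50 mg/kg (adjusted p = 0.0566 to 0.0818, log2 change 0.99 to 1.14), and without the arrays that carry muscle or pancreas transcripts, where the 1 array left at 0.1 mg/kg was assumed to vary like the others (1.14, adjusted p = 0.974). Apcs differed by 0.13 from vehicle (adjusted p = 0.349) and by 0.16 from 0.1 mg/kg (adjusted p = 0.374).

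The other secreted proteins had small changes at 50 mg/kg. They were -0.17 for hemopexin (Hpx), -0.17 for ceruloplasmin (Cp), -0.10 for Itih3, -0.15 for Itih4 and -0.05 for complement C3, with adjusted p from 0.335 to 0.731. For Itih3 and Itih4, heavy chains of a hyaluronan-binding inhibitor and neighbours in the genome, all arrays at 50 mg/kg lay below all vehicle arrays. Of the 2 further probe sets of Cp, 1 was at -0.30 (adjusted p = 0.399) and the other at 0.14 (adjusted p = 0.669).

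Hamp encodes hepcidin, which lowers plasma iron and is induced by interleukin 6. Hamp read 10.75, 11.40, 11.17, 11.53 and 11.47 in vehicle, 11.65, 10.21, 11.18, 11.52 and 11.53 at 0.1 mg/kg, 12.02, 11.30, 11.08, 11.55 and 11.58 at 15 mg/kg and 10.83, 10.71, 11.13, 10.41 and 12.01 at 50 mg/kg. The arrays at 50 mg/kg ran from 10.41 to 12.01 and spanned the vehicle range. The log2 change was -0.25 (95% interval -0.83 to 0.34, adjusted p = 0.778), and 0.05 without the arrays that carry muscle or pancreas transcripts.

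Of the 5 chemokine, adhesion and antimicrobial genes none passed at 50 mg/kg and 4 had a lower mean, against 47% of all probe sets. Cxcl1, a neutrophil-attracting chemokine that NF-kappaB induces, had the lowest log2 change of the 34 genes. Cxcl1 read 9.06, 7.66, 7.07, 10.25 and 6.93 in vehicle, 8.29, 7.45, 7.49, 7.46 and 7.07 at 0.1 mg/kg, 6.81, 7.97, 7.35, 7.70 and 7.32 at 15 mg/kg and 6.81, 6.74, 6.74, 6.73 and 6.63 at 50 mg/kg. At 50 mg/kg the arrays kept within 6.63 to 6.81, below all vehicle arrays and all arrays at 0.1 mg/kg, while vehicle ran from 6.93 to 10.25. The change against vehicle was -1.46 (SE 0.44, adjusted p = 0.137), and -0.95 without vehicle replicate 4 (adjusted p = 0.241). Lcn2 read 9.43, 9.31, 10.22, 13.02 and 9.86 in vehicle, 10.00, 9.98, 10.07, 9.71 and 10.06 at 0.1 mg/kg, 9.50, 11.75, 9.84, 8.25 and 9.78 at 15 mg/kg and 8.73, 9.38, 10.22, 8.25 and 9.78 at 50 mg/kg. Vehicle replicate 4 and replicate 2 at 15 mg/kg were high, and replicate 4 was low at 15 and at 50 mg/kg. The change of Lcn2 at 50 mg/kg was -1.09 (SE 0.61, adjusted p = 0.472), and -0.43 without vehicle replicate 4.

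S100a8 and S100a9 are the subunits of calprotectin, which neutrophils store, and are neighbours in the genome. S100a8 read 12.26, 12.04, 12.96, 12.88 and 12.49 in vehicle, 12.64, 12.26, 12.56, 12.41 and 12.25 at 0.1 mg/kg, 12.22, 12.15, 12.39, 11.80 and 12.38 at 15 mg/kg and 11.83, 12.34, 12.37, 10.95 and 12.37 at 50 mg/kg. S100a9 read 12.67, 12.39, 13.15, 13.13 and 12.82 in vehicle, 12.98, 12.75, 12.93, 12.86 and 12.71 at 0.1 mg/kg, 12.72, 12.57, 12.75, 12.23 and 12.72 at 15 mg/kg and 12.44, 12.52, 12.77, 11.52 and 12.79 at 50 mg/kg. Replicate 4 at 50 mg/kg was the lowest of all 20 arrays for both. Its neutrophil marker mean of 7.27 was also the lowest of the 20 arrays. Their changes at 50 mg/kg were -0.55 (SE 0.23, adjusted p = 0.296) and -0.42 (SE 0.19, adjusted p = 0.351), and without that array -0.30 and -0.20. The means of 10 neutrophil and myeloid precursor markers ran from 7.79 to 8.38 in vehicle, 8.13 to 8.40 at 0.1 mg/kg, 7.77 to 8.20 at 15 mg/kg and 7.27 to 8.09 at 50 mg/kg. Of the 10 markers none passed at 50 mg/kg against vehicle, and all 10 had a lower mean (median log2 change -0.31), against 47% of all probe sets. At 0.1 mg/kg against vehicle 9 of the 10 had a higher mean (median 0.12), where 46.8% of all probe sets had a lower one. At 50 against 0.1 mg/kg all 10 had a lower mean (median -0.42), where 52.4% of all probe sets had a lower mean and 0.0612% fell. Itgam, an integrin of myeloid cells, fell by 0.66 (adjusted p = 0.0150). That call ended without replicate 5 at 0.1 mg/kg, without replicate 4 at 50 mg/kg (adjusted p up to 0.0601) and without the arrays that carry muscle or pancreas transcripts (-0.92, adjusted p = 0.713). In bulk tissue fewer cells of a type and less RNA per cell cannot be told apart, and the part of these markers in the result was not tested. Icam1 read 8.79, 8.34, 8.60, 8.92 and 8.59 in vehicle, 9.12, 8.30, 8.70, 8.79 and 8.68 at 0.1 mg/kg, 8.81, 8.34, 8.51, 8.68 and 8.79 at 15 mg/kg and 9.01, 8.46, 8.63, 8.97 and 8.73 at 50 mg/kg. Icam1, an adhesion molecule for leukocytes, overlapped between all groups and changed by 0.11 (SE 0.14, adjusted p = 0.815) at 50 mg/kg.

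None of the 5 receptors passed, and all 5 had a lower mean at 50 mg/kg, against 47% of all probe sets. The lowest change was that of Il1r1, the interleukin 1 receptor (-0.50, SE 0.18, adjusted p = 0.226). It was -0.29 without vehicle replicate 4, whose value of 10.96 was 2.07-fold above the mean of the other 4 vehicle arrays. A second probe set of Il1r1 changed by -0.50 (adjusted p = 0.0517). Il6r, the interleukin 6 receptor, changed by -0.23 (adjusted p = 0.349), Cd14 by -0.26 (adjusted p = 0.552) and the TNF receptor Tnfrsf1a by -0.04 (0.07 without vehicle replicate 4). Il6st had a change of -0.14 in its brightest probe set (adjusted p = 0.656). Its 2 dimmest probe sets were at -0.62 and -0.74 (adjusted p = 0.0859 and 0.0806).

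Of the signalling and feedback genes, Socs3 had a lower mean in all 3 dose groups. Its signal was low: the mean of 4.55 over the arrays was below every array median and above 34.5% of probe sets. Socs3 read 4.77, 4.60, 4.92, 5.47 and 4.47 in vehicle, 4.68, 4.30, 4.47, 4.34 and 4.46 at 0.1 mg/kg, 4.71, 4.62, 4.46, 4.35 and 4.65 at 15 mg/kg and 4.36, 4.35, 4.25, 4.42 and 4.43 at 50 mg/kg. Arrays at 50 mg/kg lay below all vehicle arrays, and vehicle replicate 4 was the highest of the 20. The log2 change was -0.48 (SE 0.13, adjusted p = 0.0995) at 50 mg/kg, -0.28 at 15 mg/kg and -0.39 at 0.1 mg/kg. Without vehicle replicate 5 it passed at 50 mg/kg (-0.57, adjusted p = 0.0418). Stat3 varied between arrays by more than 2 log2 units, from 7.57 to 9.86, and its change at 50 mg/kg was -0.41 (SE 0.33, adjusted p = 0.664). At 15 mg/kg it was -0.83 (unadjusted p = 0.0222, adjusted p = 0.337), the lowest of the 34 genes at that dose, and at 0.1 mg/kg -0.23 (adjusted p = 0.937). Its second probe set changed by -0.47 (adjusted p = 0.127), and there arrays at 50 mg/kg lay below all vehicle arrays.

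Cebpd, a C/EBP factor induced in the acute phase, had a lower mean at every dose. Cebpd read 7.52, 7.06, 7.40, 7.43 and 7.09 in vehicle, 7.42, 6.83, 7.09, 7.26 and 7.09 at 0.1 mg/kg, 7.03, 7.11, 6.80, 7.04 and 6.88 at 15 mg/kg and 6.78, 7.07, 7.06, 6.81 and 6.89 at 50 mg/kg. Values at 50 mg/kg reached 7.07 and vehicle began at 7.06, so the groups met. Its change was -0.38 (SE 0.11, adjusted p = 0.114) at 50 mg/kg and -0.33 at 15 mg/kg. The dimmest probe set of Cebpd was at 0.06 (adjusted p = 0.845). Cebpb, its relative, was 0.08 higher (adjusted p = 0.854) and Junb, an AP-1 subunit, was at -0.27 (adjusted p = 0.489).

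Counted over the list, the 1 gene called at 50 mg/kg against vehicle stands beside 0.934% of all 31042 probe sets called, and 0.348% called lower. At an unadjusted p under 0.05, 14 of the 34 were lower and 2 higher, where 13% of all probe sets passed in either direction and 6.13% were lower. Groups did not overlap for 8 genes that were lower (A2m, Lbp, Cxcl1, Itih3, Itih4, Serpina3n, Socs3 and Nfkbiz; 1.18% of all probe sets) and 1 that was higher (Apcs; 1.78%), where 2.96% of all probe sets were apart either way. The median log2 change of the 34 was -0.20, against 0.01 over all probe sets, and 30 of 34 had a lower mean, against 47%. Without vehicle replicate 4 the median was -0.15, and 27 of 34 had a lower mean against 47.5%. Then 8 were lower at an unadjusted p under 0.05 (5.66% of all probe sets). Nfkbiz and Serpina3n were called, beside 137 of the 31042 probe sets, and the same 8 genes lay apart below vehicle (1.61% of all probe sets). Without replicate 4 at 50 mg/kg, 30 of 34 had a lower mean (47.4% of all probe sets), 8 were lower at an unadjusted p under 0.05 (5.16%) and the same 8 lay apart (1.54%). Leaving out an array cannot make separate groups overlap. The 8 genes that lay apart therefore had to stay apart in both fits. The list was chosen with earlier results of these data known, so these counts describe it and are not an independent test.

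**Figure D2:**
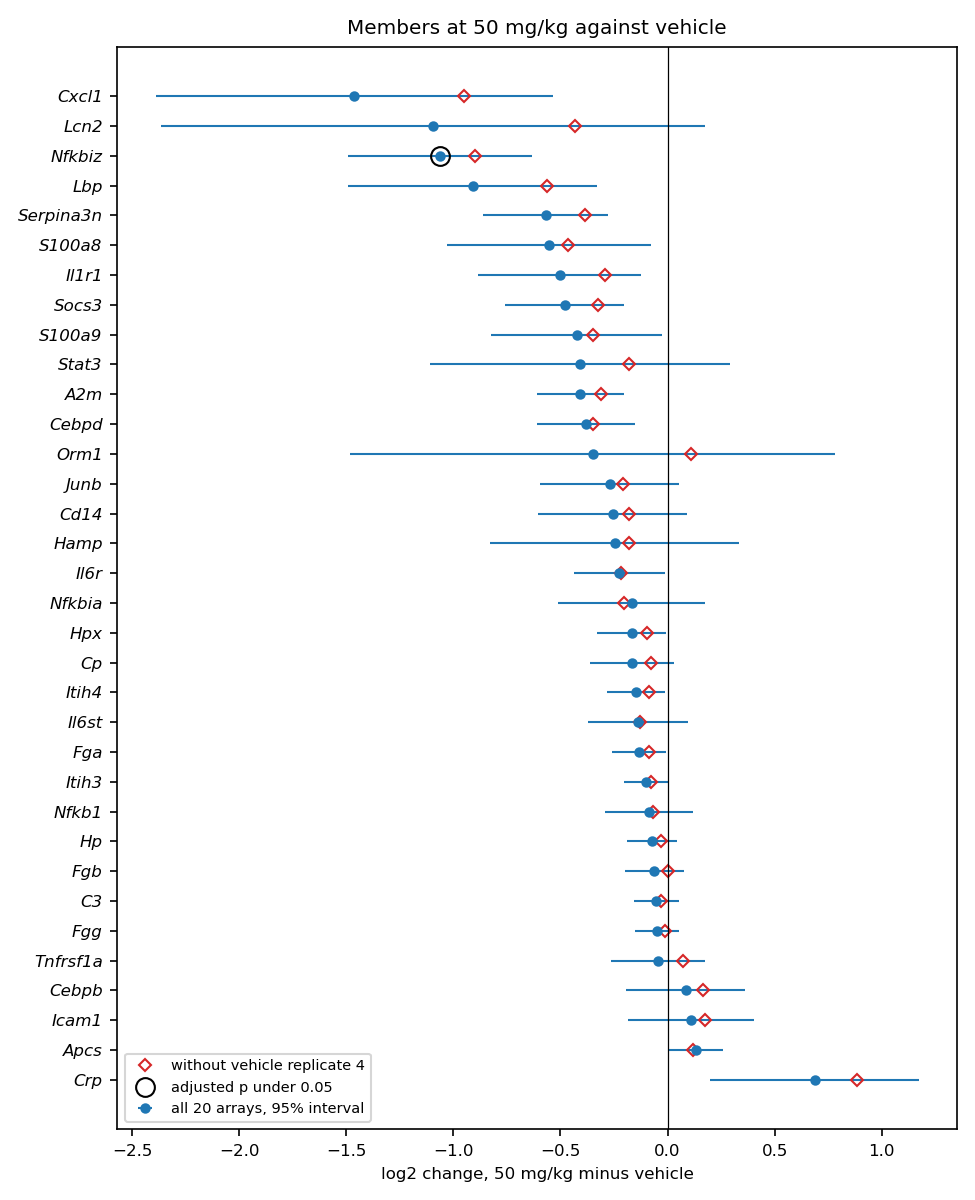
Log2 change of each of the 34 genes (rows) at 50 mg/kg against vehicle (horizontal), with its 95% interval. A ring marks the called gene, Nfkbiz at -1.06, and red diamonds the values without vehicle replicate 4, which for Lcn2 go from -1.09 to -0.43 and for Orm1 from -0.35 to 0.11.

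Kupffer cells are the macrophages that live in the liver sinusoids. Of 10 of their markers 5 fell at 50 mg/kg (C1qb, Cd163, Cd68, C1qc and Aif1) and all 10 had a lower mean, with a median of -0.47. Of all probe sets 0.348% fell and 47% had a lower mean. The mean of the 10 ran from 9.86 to 10.04 in vehicle, 9.61 to 10.02 at 0.1 mg/kg, 9.65 to 9.99 at 15 mg/kg and 9.22 to 9.68 at 50 mg/kg. The number that fell was 1 without vehicle replicate 3, without vehicle replicate 4 or without replicate 4 at 50 mg/kg, and 0 without the arrays that carry muscle or pancreas transcripts, while all 10 stayed lower in each of those fits. An array gives every probe set a value, so no marker was at 0. The part of these markers in the results for the 34 genes was not tested. Endothelial markers had a median of -0.02 and hepatocyte markers a median of 0.00, and none of the 9 and 11 passed at 50 mg/kg. None of 10 erythroid markers passed either, and 9 of the 10 had a lower mean (median -0.35), against 47% of all probe sets. The erythroid list mean ran from 9.07 to 9.74 in vehicle and from 8.36 to 9.81 at 50 mg/kg. Of 12 skeletal muscle markers 10 had a higher mean at 50 mg/kg (median 0.51) and none passed, with list means from 4.12 to 9.07 in vehicle and from 4.35 to 7.50 at 50 mg/kg. Stellate cell and lymphocyte markers had medians of 0.13 and -0.04, and exocrine pancreas markers 0.05, with none called. The part of these lists in the results was not tested.

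At 15 mg/kg against vehicle none of the 34 passed limma's test, beside 0.116% of all probe sets (0.0226% lower and 0.0934% higher). The median log2 change was -0.12 and 31 of 34 had a lower mean, against 45.9% of all probe sets. Unadjusted p was under 0.05 for 6 lower genes and 1 higher one (12.1% of all probe sets in either direction, 4.54% lower). For no gene were the groups apart (2.32% of all probe sets, 0.754% lower and 1.57% higher). At 0.1 mg/kg none of the 34 passed, beside 0% of all probe sets. The median was -0.10, and 28 of 34 had a lower mean, against 46.8%. At an unadjusted p under 0.05 there were 6 lower genes and no higher one (6.87% of all probe sets in either direction, 3% lower). Fga was apart and lower, as were 0.474% of all probe sets, where 0.763% were apart and higher and 1.24% apart either way. Without vehicle replicate 4 the counts with a lower mean were 24 of 34 at 15 mg/kg and 23 of 34 at 0.1 mg/kg, with medians of -0.06 and -0.04. All 3 dose comparisons share the 5 vehicle arrays. The means at 50 and 0.1 mg/kg do not use those arrays, but the spread that the test uses does. Between these 2 groups Crp was called (0.644% of all probe sets, 0.583% higher and 0.0612% lower). Without vehicle replicate 4 the adjusted p of Crp was 0.00919, and A2m was called too. With all arrays the median was -0.11, and 24 of 34 were lower at 50 mg/kg, against 52.4%. At an unadjusted p under 0.05 there were 6 lower and 3 higher genes (8.89% of all probe sets either way, 3.83% lower). Cxcl1 and Itih3 lay apart below 0.1 mg/kg and Crp and Apcs above it (2.73% of all probe sets apart, 0.896% lower and 1.83% higher). In the F test over the 4 groups none of the 34 passed (0.528% of all probe sets), with the smallest adjusted p at 0.0588 for Crp and 0.0618 for Nfkbiz.

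Vehicle replicate 4 was the highest vehicle array for 25 of the 34 genes, and 10 of the 34 lay more than 0.5 above their group mean there. Of all probe sets 0.847% did so on that array. Lcn2 stood at 13.02 against 9.70 for the mean of the other 4 vehicle arrays (9.98-fold), Cxcl1 was 5.93-fold higher and Orm1 4.89-fold. Serpina3n was 1.89-fold higher, Socs3 1.72-fold and A2m 1.39-fold. Nfkbia (log2 difference -0.18) and Apcs (-0.09) were not raised on it. The marker means of that array were within the range of the other vehicle arrays for endothelial markers (8.45) and for Kupffer cell markers (10.01), and its neutrophil mean of 8.38 was the highest of the 5. Among the Kupffer markers called at 50 mg/kg, C1qb (10.70), C1qc (9.85), Cd163 (9.65) and Cd68 (9.43) were at their highest vehicle value there. Aif1 (9.27) was at its lowest. Vehicle replicate 4 carried no muscle or pancreas transcripts.

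A second array differed in fewer of the 34 genes. Replicate 2 at 15 mg/kg was the highest of its group for 13 of the 34. There 4 of the 34 lay more than 0.5 above their group mean, as did 1.71% of all probe sets. Orm1 was 6.03-fold and Lcn2 5.31-fold above the mean of the other 4. Lbp was 1.78-fold higher, Cxcl1 1.60-fold and Nfkbiz 1.54-fold. The fibrinogen chains differed from that mean by 0.00 on the log2 scale, S100a8 by -0.05 and Socs3 by 0.08. Vehicle replicate 1 had Orm1 at 11.06, Cxcl1 at 9.06 and Nfkbiz at 8.98, but Lcn2 at 9.43 and Lbp at 10.16. The genes that were high thus differed between these 3 arrays. Replicate 1 at 0.1 mg/kg was the highest of its group for 19 genes, among them Stat3 at 9.86 and Cd14 at 8.53. On it 2 of the 34 lay more than 0.5 above their group mean, as did 1.38% of all probe sets. The share of all probe sets that were highest on a given array was not computed.

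Lcn2, Orm1, Cxcl1, Stat3, Lbp and Hamp had within-group SDs of 1.07, 0.95, 0.78, 0.59, 0.49 and 0.49, which are above those of 97.5% to 99.7% of all probe sets. Itih3, Fgg, C3 and Hp had SDs of 0.051 to 0.070, which 0.113% to 0.963% of probe sets fell below.

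**Figure D3:**
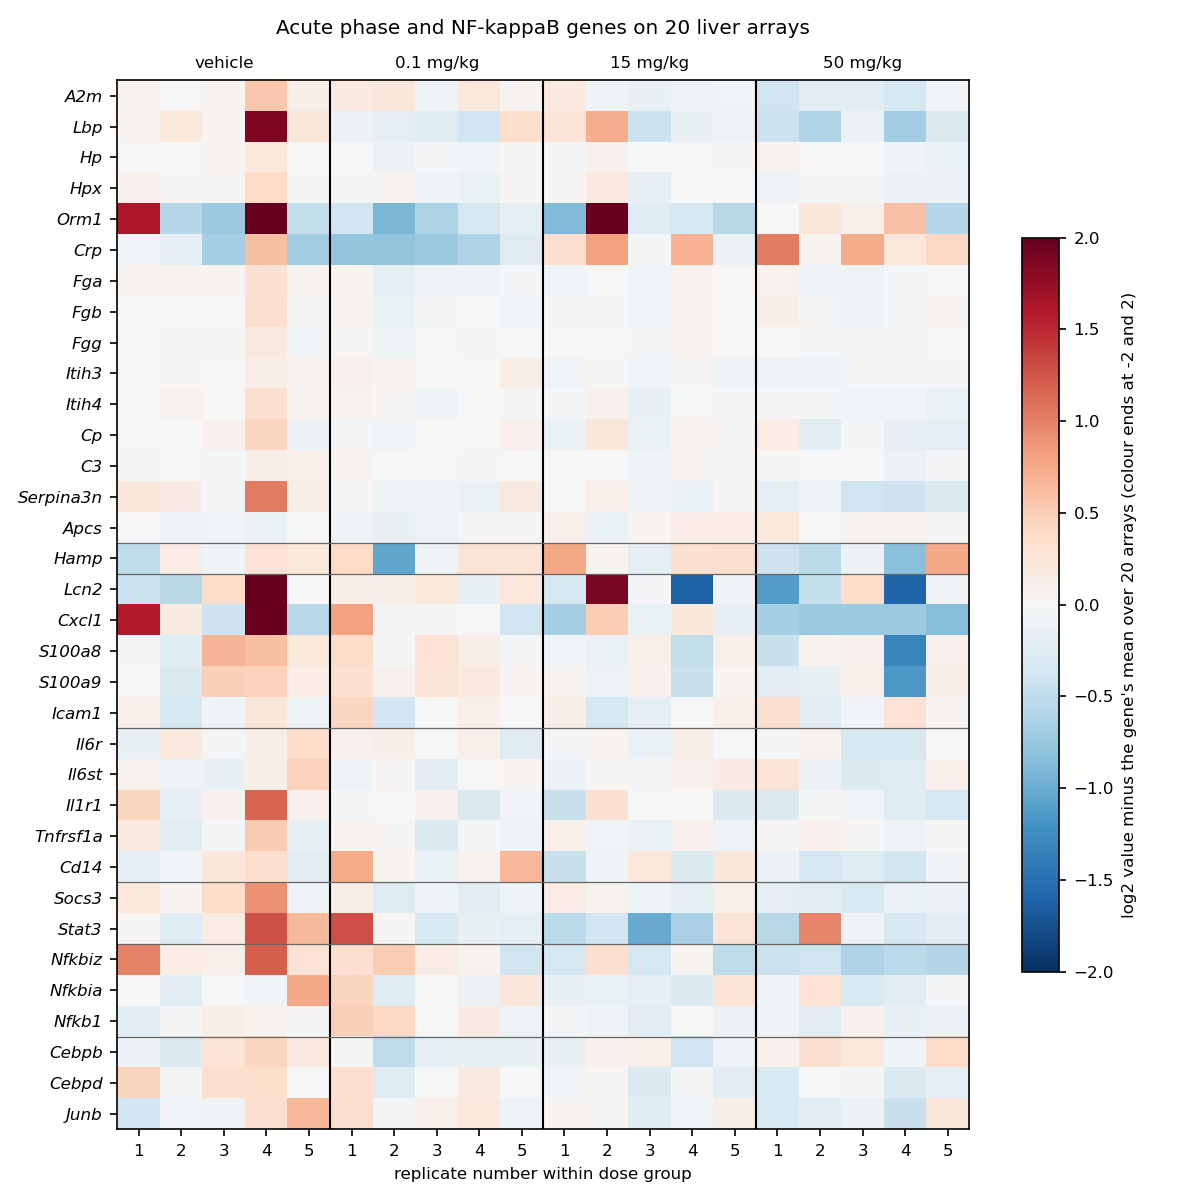
Each of the 34 genes (rows, grouped by role) on each of the 20 arrays (columns, by dose group and replicate), as the log2 value minus the gene's mean over the 20 arrays, with colours ending at -2 and 2. Vehicle replicate 4 is the reddest column, and replicate 2 at 15 mg/kg is red for Orm1 and Lcn2.

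The correlation of deviations from the group mean was computed for 8 pairs over the 20 arrays, with permutations within groups and adjustment over the 8. S100a8 with S100a9 had a Pearson r of 0.974 (permutation p = 1e-05, the smallest that the permutations can give, adjusted p = 8e-05) and a Spearman rho of 0.958 (permutation p = 1e-05). Fga with Fgb had r = 0.940 (permutation p = 3e-05, adjusted p = 8e-05; rho 0.900, permutation p = 4e-05) and Fga with Fgg 0.885 (permutation p = 3e-05, adjusted p = 8e-05; rho 0.877, permutation p = 3e-05). Without the 2 arrays farthest from the median these r were 0.926, 0.867 and 0.665. The arrays' description numbers begin with digits 1 to 4, on 5, 6, 5 and 4 arrays, and r within each digit is given as a description over few arrays. Within digits 1 to 4 in that order it was 0.890, 0.963, 0.999 and 0.986 for S100a8 with S100a9, 0.992, 0.834, 0.961 and 0.775 for Fga with Fgb, and 0.971, 0.778, 0.998 and 0.949 for Fga with Fgg. These are neighbouring genes whose products assemble together.

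Lcn2 with Cxcl1, both NF-kappaB targets, had r = 0.507 (permutation p = 0.119, adjusted p = 0.19; rho 0.248, permutation p = 0.356). It was -0.01 without vehicle replicate 4 and -0.31 without the 2 farthest arrays, so the pooled relation rests on those arrays. Within leading digits 1 to 4 it was -0.300, 0.739, 0.855 and 0.838. Socs3 with Lbp had r = 0.681 (permutation p = 0.0599, adjusted p = 0.12; rho 0.448, permutation p = 0.0758), which was 0.221 without the 2 farthest arrays. Within the digits it was 0.574, 0.165, 0.944 and 0.489. The other pairs were Cebpd with A2m at 0.301 (permutation p = 0.281, adjusted p = 0.374; rho 0.359, permutation p = 0.159), Nfkbiz with Nfkbia at -0.227 (permutation p = 0.497, adjusted p = 0.568; rho -0.167, permutation p = 0.532) and Socs3 with Junb at 0.117 (permutation p = 0.778, adjusted p = 0.778; rho 0.250, permutation p = 0.36). Without their 2 farthest arrays these r were 0.429, -0.183 and 0.286. Within the digits they were -0.0173, 0.765, 0.737 and 0.490 for Cebpd with A2m, -0.228, 0.476, -0.312 and -0.0833 for Nfkbiz with Nfkbia, and 0.786, 0.174, 0.549 and -0.586 for Socs3 with Junb.

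**Figure D4:**
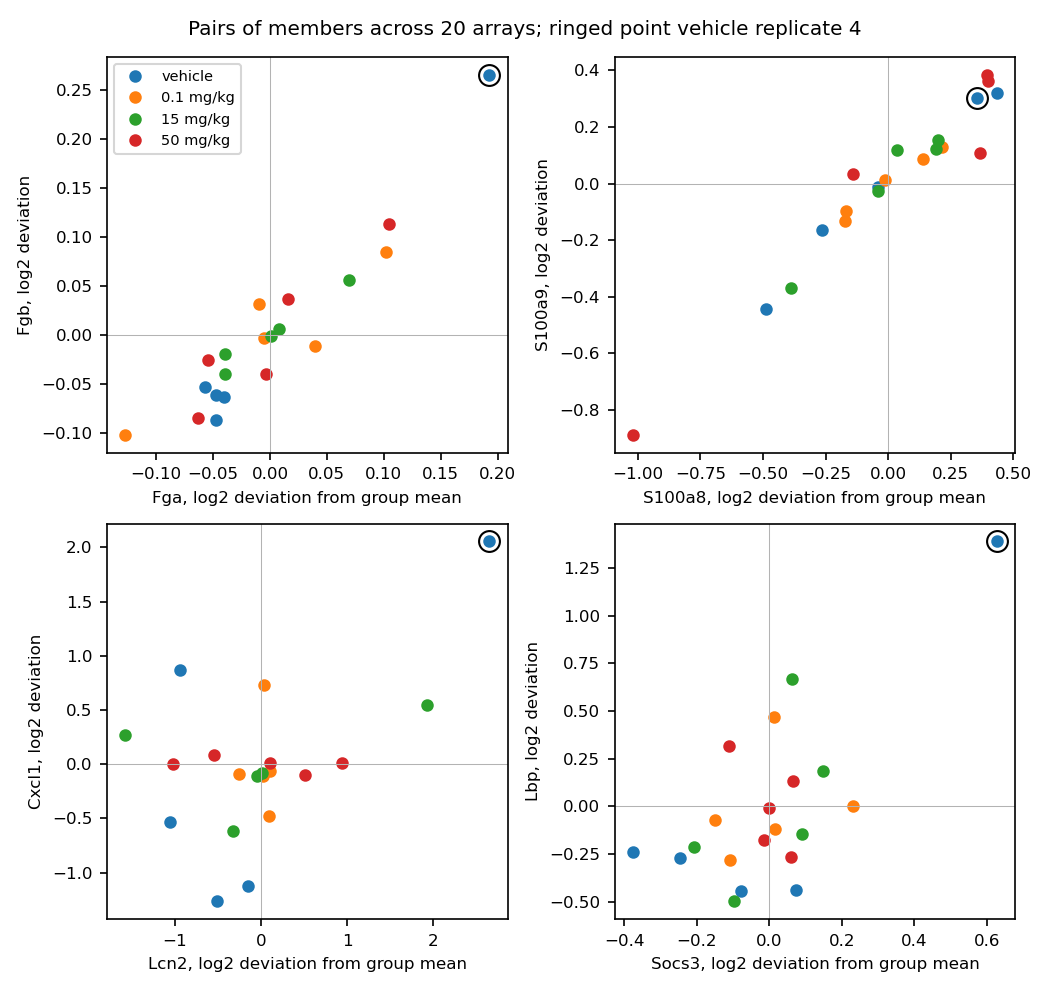
Deviation from the group mean on the log2 scale of 1 gene against another over the 20 arrays, for 4 pairs. Fga with Fgb and S100a8 with S100a9 lie along a line (r of 0.940 and 0.974), while Lcn2 with Cxcl1 and Socs3 with Lbp are drawn out by vehicle replicate 4.

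Another 81 measured genes of the same pathways, which are not among the 34, were read from the same fit. At 50 mg/kg against vehicle 2 fell, none rose and 79 did not pass, with 55 lower and 26 higher and a median of -0.09. Of all probe sets 0.348% fell and 47% had a lower mean. At an unadjusted p under 0.05, 22 were lower (6.13% of all probe sets) and 1 higher. Serpina7, thyroxine-binding globulin, fell by 0.50 (SE 0.08, adjusted p = 0.00542). Serpina7 read 12.27, 12.39, 12.19, 12.40 and 12.33 in vehicle, 12.20, 12.21, 12.00, 12.25 and 12.28 at 0.1 mg/kg, 12.05, 12.30, 11.94, 12.16 and 12.18 at 15 mg/kg and 12.08, 11.78, 11.83, 11.80 and 11.60 at 50 mg/kg. All arrays at 50 mg/kg lay below all vehicle arrays. Vcam1, an adhesion molecule that NF-kappaB induces, fell by 0.54 (SE 0.11, adjusted p = 0.0212). Its call ended without any 1 of vehicle replicates 2 and 5 and replicates 3 and 4 at 50 mg/kg (adjusted p up to 0.0777). Both calls ended without the arrays that carry muscle or pancreas transcripts (-0.56, adjusted p = 0.0722, and -0.50, adjusted p = 0.251).

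No gene of the other 4 lists passed at 50 mg/kg. Of 16 cytokine and receptor genes the smallest p-values were those of Tlr4, the lipopolysaccharide receptor (-0.51, adjusted p = 0.0777), and Il1rn, an interleukin 1 antagonist (-0.36, adjusted p = 0.137). Of 14 kinases, adaptors and STATs they were Jak2 (-0.27, adjusted p = 0.218) and Pias3 (-0.21, adjusted p = 0.36). Of 10 NF-kappaB genes they were Tnfaip3, a brake on NF-kappaB (-0.48, adjusted p = 0.164), and the kinase Ikbkb (-0.26, adjusted p = 0.204). Of 19 other acute phase genes, not all of them for secreted proteins, they were Steap4 (-0.51, adjusted p = 0.0682) and fibronectin (Fn1, -0.21, adjusted p = 0.107). Of 12 chemokine and adhesion genes Vcam1 fell, and Ccl5 came next (-0.67, adjusted p = 0.234). Of 10 negative acute phase proteins, whose levels drop in the response, Serpina7 fell and Serpina6, which carries corticosteroids, was 0.56 higher (adjusted p = 0.183). At 15 and 0.1 mg/kg against vehicle none of the 81 passed limma's test. At an unadjusted p under 0.05 there were 11 lower (4.54% of all probe sets) and 1 higher at 15 mg/kg, and 2 lower (3%) and 2 higher at 0.1 mg/kg. At 50 against 0.1 mg/kg there were 16 lower (3.83%) and 3 higher. At 50 against 0.1 mg/kg Serpina6 rose by 0.85 (adjusted p = 0.0362) and Serpina7 fell by 0.37 (adjusted p = 0.0485). The call of Serpina6 held in 11 of 20 fits that leave out 1 array, and that of Serpina7 in 4 of 20.

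Of 12 immediate early and handling genes 1 rose at 50 mg/kg, Gadd45b (0.86, SE 0.12, adjusted p = 0.000909), an NF-kappaB target in many cells. Of all probe sets 0.586% rose. Gadd45b read 5.52, 5.35, 5.29, 5.57 and 5.20 in vehicle, 5.29, 5.25, 5.76, 5.48 and 5.46 at 0.1 mg/kg, 5.75, 5.88, 6.08, 5.71 and 5.86 at 15 mg/kg and 6.70, 6.05, 6.03, 6.15 and 6.29 at 50 mg/kg. None of the 5 vehicle arrays reached the lowest of those at 50 mg/kg. Without the arrays that carry muscle or pancreas transcripts the call ended (0.73, adjusted p = 0.0548). At 50 against 0.1 mg/kg Gadd45b also rose (0.80, adjusted p = 0.00144), and there it was at 0.37 without those arrays (adjusted p = 0.974).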

How the data were processed

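Liver RNA of 20 samples was measured on Affymetrix rat arrays, 1 array a sample. The deposited values are log2 expression per probe set made by the authors with RMA, per the submitters' processing notes. The version of RMA is not given in the sources used here, nor is the set of arrays on which it was run. RMA's quantile step brings arrays to like distributions. Array values can be compressed near the low and high ends of the scale, so folds may be understated.

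Control probe sets (57) were left out, leaving 31042, of which 20826 carry 1 gene symbol, 436 several and 9780 none in the platform annotation. limma 3.58.1 in R 4.3.3 was fitted with 1 mean per group (16 residual degrees of freedom), and p-values were adjusted over all probe sets by Benjamini-Hochberg for each comparison. No filter on low values was used. The number of arrays, 5 a group, limits the precision. The study's design text names another tool for its tests, which was not used here. Each gene was read from its brightest probe set with 1 symbol. Values of every array are given for genes called in any comparison, the 3 with the smallest p in each direction at 50 mg/kg and a set of index genes, and from each pathway list the called genes or else the 2 with the smallest p are named. The probe sets whose sign differs are given too. The 34 genes, the pathway and marker lists and the named genes were chosen with earlier results of these data known. Pairs were tested with 100000 permutations within groups (numpy 2.4.6). Motifs were matched with Python 3.11.15. The fit and the pair test were tested on simulated data. Alternatives were a replicate block, a block for the leading digit of the array's description number, other normalizations, filters, shrinkage and array weights, and leaving out arrays.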

Additional observations from a re-analysis of the deposited data

Results flagged for a closer look

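Among 136 sets of 5 arrays, 1 for each of the 34 genes in each group, 17 had an array whose gap to its nearest neighbour was large for the group's range by Dixon's criterion. The criterion's nominal rate is about 1 in 20 for independent sets. These sets share arrays, and the share over all probe sets was not computed, so no excess can be read from the 17.

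Vehicle replicate 4 was the high array in 8 of the 17. Its log2 values were 13.89 for A2m, 11.99 for Lbp, 13.02 for Lcn2, 14.42 for Hp, 14.24 for Fga, 14.27 for Fgb, 14.00 for Itih4 and 13.39 for Serpina3n. All 8 genes encode secreted proteins.

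Replicate 1 at 0.1 mg/kg was high for C3 (14.26) and Stat3 (9.86), and it also carried muscle transcripts. At 15 mg/kg replicate 2 was high for Orm1 (11.53) and replicate 5 for Nfkbia (8.04). Vehicle replicate 5 was high for Nfkbia (8.52). At 50 mg/kg replicate 1 was high for Apcs (13.33) and replicate 4 low for S100a9 (11.52). At 0.1 mg/kg replicate 4 was low for Lcn2 (9.71) and replicate 5 low for Il6r (9.54). What sets these arrays apart was not tested.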

How the results depend on the processing

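Of 1086 values of the 34 genes at 50 mg/kg against vehicle under the alternatives, 1062 kept their direction and their side of the threshold, 3 no longer passed, 14 newly passed and 7 reversed. Only Nfkbiz had a call to lose, and the 3 were its values. The 1062 therefore say little about how firm a call is. At 50 mg/kg against vehicle 1 gene was called. The count was 0 with only the groups compared and 0 without the arrays that carry muscle or pancreas transcripts (fewer arrays in both). It was 3 with a mean of at least 6, a mean of at least 5 or 1 probe set per gene (A2m, Serpina3n and Nfkbiz), where fewer probe sets were tested. It was 2 with an intensity trend and robust shrinkage (A2m, Nfkbiz), with array weights (Serpina3n, Nfkbiz) and with the mean of all probe sets of a gene (A2m, Serpina3n), and 1 to 2 when any single array was left out. At 50 against 0.1 mg/kg, also 1 gene, it was 0 without the muscle or pancreas arrays, and 0 to 2 with 1 array left out. In the F test, where none passed, it was 1 with the replicate block, 1 with the block of leading digits, 1 with the mean of all probe sets, 2 with either filter, array weights or 1 probe set per gene, and 0 to 1 with 1 array left out. At 15 and 0.1 mg/kg against vehicle no gene was called under any of these.

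With 1 array left out the median change at 50 mg/kg ran from -0.22 to -0.15 and the number of genes with a lower mean from 27 to 31. Reversals were Fgb at 0.00883 with the mean of all probe sets, Hamp at 0.0516 and Icam1 at -0.12 without the muscle or pancreas arrays, and, with 1 array left out, Cebpb (-0.0096 to 0.168), Orm1 (-0.64 to 0.11), Fgb (-0.0912 to 0.0035) and Tnfrsf1a (-0.11 to 0.0706). Correlations reversed for Lcn2 with Cxcl1 (-0.0109 to 0.634) and Socs3 with Junb (-0.143 to 0.563) with 1 array left out, for Cebpd with A2m (-0.0278) without the muscle or pancreas arrays, and for Nfkbiz with Nfkbia (0.0975) with deviations from the leading digit means. Under that last setting 5 pairs passed instead of 3, and 3 to 3 with 1 array left out. The cause was not tested.

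Probe sets called at 50 mg/kg against vehicle numbered 290, 89 with only the groups compared, 21 without the muscle or pancreas arrays and 106 to 276 with 1 array left out. At 15 mg/kg they numbered 36, 11, 7 and 14 to 44. At 0.1 mg/kg they numbered 0, with 0 to 1 with 1 array left out. At 50 against 0.1 mg/kg they numbered 200, 3 without the muscle or pancreas arrays and 107 to 220 with 1 left out, and in the F test 164, 6 and 96 to 171.

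Replicate numbers did not pair the arrays: same-numbered arrays correlated from -0.362 to 0.288 (median 0.00119, 10 of 30 pairs over 0.1), and 4 of 20 arrays correlated best with their own number. With the replicate block 1 gene was called at 50 mg/kg against vehicle (Nfkbiz, -1.06, adjusted p = 0.0104; 235 probe sets), 1 at 50 against 0.1 mg/kg (184) and 1 in the F test (153). Probe sets near the top or bottom of the scale, such as Hp or Socs3, may show less change than occurred.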
